A study of Mus musculus with 12 samples.

Results

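The oligodendrocyte lineage is built by a small set of transcription factors, and 9 of them were followed here, Olig1, Olig2, Sox10, Sox8, Sox9, Nkx2-2, Nkx6-2, Myrf and Zfp488. They were taken by gene symbol from 45563 symbols in the deposited tables. The rule uses no measured value, but the set was chosen with earlier results of these data known. All 9 passed the filter on low values. The cells were primary oligodendrocyte precursor cells (OPCs), the dividing glia that give rise to myelinating oligodendrocytes, isolated from cortices of C57BL/6 mouse pups at postnatal day 2 to 5 by beads against PDGFRα and kept for 3 days in medium with the mitogens PDGF-AA and FGF2. The 4 groups of 3 libraries were non-stimulated wild type (WT NS), non-stimulated TNFR2-/- (TNFR2-/- NS), and both genotypes after 3 h with TNF, IFNγ and IL1β at 25 ng/mL each (WT St and TNFR2-/- St). TNFR2-/- mice carry a germline deletion, which is not limited to OPCs or to the time of culture, and NS cells received PBS vehicle. The labels number the libraries 2, 3 and 4 in WT and 2, 4 and 5 in TNFR2-/-, and libraries of 1 genotype that share a number are called a culture below.

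These factors act in a chain that is known from developmental studies. Olig1 and Olig2 are basic helix-loop-helix (bHLH) proteins that bind E-boxes, and Olig2 is required to specify the lineage. Sox8, Sox9 and Sox10 are the SoxE group of high mobility group proteins. Sox9 acts early in glial specification, Sox10 marks the whole lineage and switches on Myrf and the myelin genes, and Sox8 overlaps with both in function. Nkx2-2 and Nkx6-2 are homeodomain proteins, the first linked to the onset of differentiation and the second to later stages of myelin formation. Myrf is the membrane-bound factor that drives myelin gene expression in differentiating cells, and Zfp488 is a zinc finger protein that works with Olig2.

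In WT cells and in cells labeled TNFR2-/- alike, the 3 h exposure left Sox8 and Olig2 far below their non-stimulated levels, with Olig1 moderately lower. Sox10 and Nkx6-2 were higher in the stimulated library of every culture, but in the main test each passed in 1 genotype only, Sox10 in WT and Nkx6-2 in TNFR2-/-, and Myrf had no common direction. Among the 5 members with a promoter entry, Olig2 and Sox8 fell the most. Only Nkx6-2 among them was higher in every stimulated library than in its non-stimulated counterpart, on few reads. Promoter sequences are shown for these 3. They come from RefSeq on GRCm38.p6 and run up to the base before the annotated gene (chr16:91225300-91225456 on the plus strand for Olig2, chr17:25570687-25570936 on the minus strand for Sox8 and chr7:139582798-139583047 on the minus strand for Nkx6-2), and capitals mark E-boxes (CANNTG) and CCAAT boxes on either strand.
Olig2: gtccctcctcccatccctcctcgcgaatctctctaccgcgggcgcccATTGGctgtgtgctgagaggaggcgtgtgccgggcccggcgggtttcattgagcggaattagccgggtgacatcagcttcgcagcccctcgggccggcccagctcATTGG
Sox8: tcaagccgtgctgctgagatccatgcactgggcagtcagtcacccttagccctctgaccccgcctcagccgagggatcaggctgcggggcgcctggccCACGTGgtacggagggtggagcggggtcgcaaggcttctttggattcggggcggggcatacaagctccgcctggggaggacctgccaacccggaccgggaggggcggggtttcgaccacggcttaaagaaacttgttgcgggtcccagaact
Nkx6-2: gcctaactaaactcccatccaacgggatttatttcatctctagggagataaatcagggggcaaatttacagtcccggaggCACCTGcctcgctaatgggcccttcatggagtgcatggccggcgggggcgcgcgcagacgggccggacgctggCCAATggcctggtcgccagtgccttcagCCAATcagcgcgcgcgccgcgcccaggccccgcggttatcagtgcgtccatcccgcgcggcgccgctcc
Of the 9 members, 5 had an entry in the RefSeq promoter set. In the whole window of 300 bases, which runs past the start site, the E-box was found in Sox8 (1 match), Nkx6-2 (1), Zfp488 (1) and Nkx2-2 (3), and in 72.3% of 32851 promoters of the same length. The CCAAT box, a motif added after these sequences had been read, occurred 2 times each in Olig2 and Nkx6-2 and in 37.4% of all promoters. None of the 5 windows held the STAT element TTCNNNGAA (8.3% of all promoters), the interferon regulatory factor element (3.4%), the NF-kB site (8.5%) or the SOX motif ACAAAG (18.7%). These are matches of letters in a short window and nothing is read from them about binding.

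The values are deposited FPKM, read fragments scaled to gene length and library size. The length by which the authors divided each gene was not its exon length (117 bases for Myrf, whose exons span 8562 bases), so FPKM was compared between libraries for 1 gene at a time, and levels of different genes were compared as RPKM over annotated exons, reads per kilobase of exon scaled to library size. Each library held 26886878 to 30335265 read pairs. OPC markers were detected in every library, with Pdgfra at 8000 to 20680 reads and Cspg4 at 6579 to 13461, and 8 of 10 microglial markers had at most 15 reads. The 8 astrocyte markers together were higher in the libraries labeled TNFR2-/- NS (1321 to 2676 RPM, reads scaled to library size) than in WT NS (852 to 1020), and TNFR2-/- culture 5 stood highest. The 7 mural and fibroblast markers leaned the other way with overlap, at 108 to 542 RPM in TNFR2-/- NS and 255 to 872 in WT NS. Acta2 alone had 6501 to 25471 reads in WT NS, and 0 of the 6 markers tested passed between the non-stimulated genotypes. The summed reads of 9 neuronal markers were higher after stimulation (546 to 550 RPM in WT St, 190 to 222 in WT NS) through 1 gene. This was Tubb3, a tubulin, at 11535 to 12341 reads in WT St against 1190 to 1618 in WT NS. Snap25 went the other way (500 to 719 against 876 to 1557 reads), and the glutamatergic marker Slc17a6 had 0 or 1 read. Of the 8 neuronal markers tested, 1 passed higher and 1 lower in WT. The part of all these marker genes in the results was not tested. In bulk RNA, fewer cells of a type and less RNA per cell cannot be told apart. Reads on Tnfrsf1b, the gene of TNFR2, went against the genotype labels, with 12 to 24 reads in WT NS but 213 to 346 where the label is TNFR2-/- NS, and the counts do not show which exons they came from. Directions between genotypes therefore rest on the labels.

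**Figure D1:**
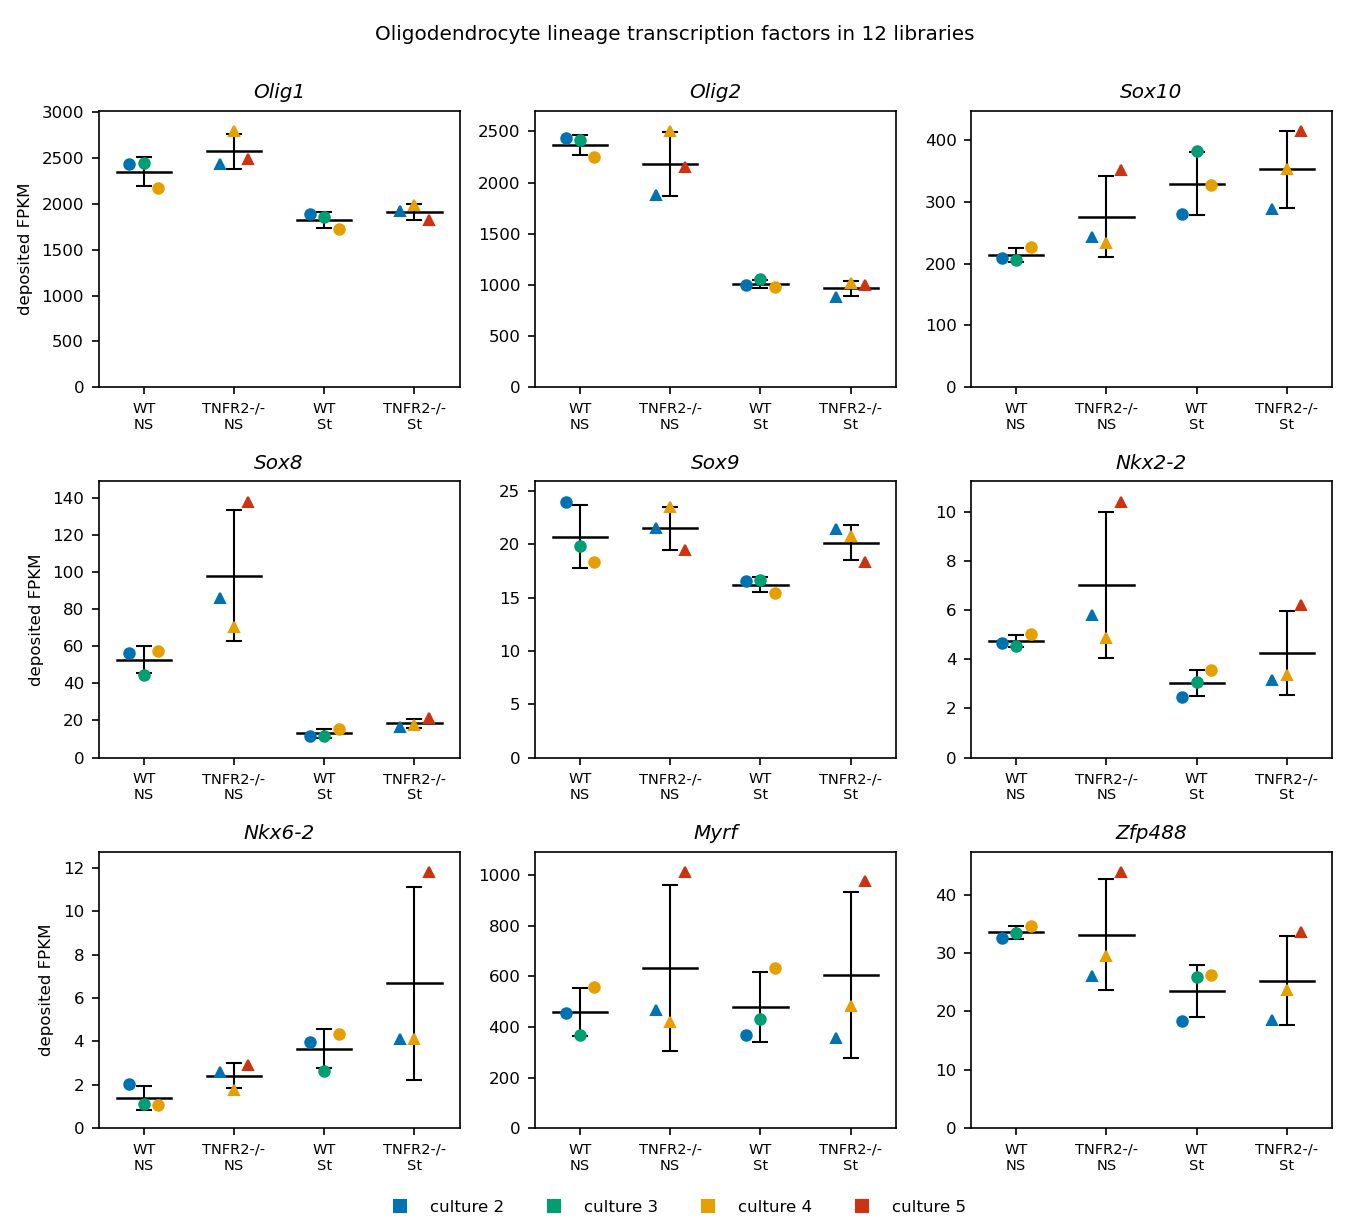
Deposited FPKM (y axes, starting at 0) of the 9 transcription factors in each of the 12 libraries, by group. Circles are WT and triangles are libraries labeled TNFR2-/-, colors give the culture number (the same number in the 2 genotypes is not the same culture), and lines with whiskers are the mean ± SD of 3 libraries. Sox8 and Olig2 sit lower in all 6 stimulated libraries than in all 6 non-stimulated ones.

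Per kilobase of exon, Olig1 was the most abundant member in all 4 groups, at 761 ± 50 exon RPKM (SD, n = 3) in WT NS, followed by Olig2 at 361 ± 15.1 and Sox10 at 65.9 ± 3.54. Sox9 at 40.5 ± 5.72 and Sox8 at 33.3 ± 4.55 overlapped in WT NS, so their order was not resolved. Below them came Nkx2-2 at 21.4 ± 1.11, Zfp488 at 10.4 ± 0.336, Myrf at 6.29 ± 1.29 and Nkx6-2 at 0.743 ± 0.295. The early lineage bHLH factors were thus the highest members in these proliferating cells and the late homeodomain factor was the lowest. The first 3 places and the last were the same in every group, but in TNFR2-/- NS the libraries of Sox10, Sox8, Sox9 and Nkx2-2 overlapped each with the next. After stimulation Sox8 stood at rank 6 in both genotypes, at 8.21 ± 1.42 in WT St and 11.7 ± 1.47 in TNFR2-/- St, where its libraries overlapped those of the next member below.

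The first comparison asks what the cytokines did to these factors in WT cells. Of the 9 members, 1 rose (Sox10) and 3 fell (Sox8, Olig2 and Olig1) at an adjusted p of at most 0.05 in limma, against 16.1% of all 18081 genes tested (7.70% higher and 8.36% lower). The median log2 fold change of the members was -0.36, beside -0.05 over all genes. The St and NS libraries did not overlap for 8 of the 9 members, 2 higher and 6 lower, where 37.7% of all genes did not overlap. NS and St libraries of the same number deviated together from their group means, and in the fit with the culture as a block 8 of 9 members passed, 2 higher and 6 lower, against 31.6% of all genes (11.4% higher and 20.2% lower). Without TNFR2-/- culture 5, which enters this comparison only through the shared estimate of spread, the WT count was also 8, against 20.6%.

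Olig2, on chromosome 16 (91225457 to 91228677, plus strand, 2 exon blocks), read 2434, 2419 and 2255 FPKM in WT NS cultures 2, 3 and 4. In WT St the same cultures read 1002, 1054 and 979 FPKM. Every stimulated library was thus below every non-stimulated one, and the 3 cultures lay close together in both states. The log2 fold change was -1.23 ± 0.096 (SE), to 42.7% of the NS mean, with an adjusted p of 7.72e-06.

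Olig1 lies on the same chromosome (91269772 to 91271933, plus strand, 1 exon block) and its protein is best known for a role in myelin repair. It read 2439, 2449 and 2176 FPKM in WT NS and 1892, 1863 and 1726 in WT St. The groups did not overlap, but the step was much smaller than that of Olig2. The log2 fold change was -0.36 ± 0.072 (adjusted p = 0.00574), and the mean in WT St was 77.6% of that in WT NS. Per kilobase, Olig1 stood at 2.11 ± 0.053 times the level of Olig2 in WT NS (SD, n = 3) and at 3.84 ± 0.151 times in WT St, with no overlap between the groups. That ratio is a quotient of values already given, and has no test of its own.

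Sox8, on chromosome 17 (25565892 to 25570686, minus strand, 3 exon blocks), showed the largest change of any member. Its FPKM was 56.6, 44.5 and 57.3 in WT NS and 11.7, 11.7 and 15.6 in WT St. The highest stimulated library was well below the lowest non-stimulated one. The log2 fold change was -1.98 ± 0.223 (adjusted p = 0.00013), which left 24.6% of the NS mean. Of the Sox8 exon bases, 329 are shared with 2810468N07Rik on the opposite strand, and the sources used here do not say whether counting used strand. The antisense gene went from 819 to 983 reads (WT NS) to 670 to 927 (WT St), a log2 fold change of -0.17 ± 0.222 that did not pass (adjusted p = 0.697), while Sox8 itself went from 2352 to 3380 reads down to 691 to 924.

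Sox10, on chromosome 15 (79154908 to 79165240, minus strand, 5 exon blocks), moved opposite to its SoxE relative. It read 209, 205 and 227 FPKM in WT NS and 279.8, 381 and 327 in WT St. All 3 stimulated libraries were above all 3 non-stimulated ones, with culture 3 the highest. The log2 fold change was 0.61 ± 0.175 (adjusted p = 0.0375), and 0.00565 with the culture as a block. Leaving out any 1 of WT NS cultures 2, 3 and 4, WT St cultures 3 and 4, or TNFR2-/- St culture 4 took the adjusted p to between 0.053 and 0.131 with a fold change of 0.50 to 0.65, and with no filter on low values it was 0.0724.

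Sox9, on chromosome 11 (112782224 to 112787760, plus strand, 3 exon blocks), read 24, 19.8 and 18.4 FPKM in WT NS and 16.5, 16.7 and 15.4 in WT St. The groups did not overlap, with a gap far smaller than for Sox8. The log2 fold change of -0.34 ± 0.109 missed the threshold (adjusted p = 0.062), and it passed with the culture as a block (adjusted p = 0.012). Within the SoxE group, summed per kilobase, Sox8 made up 23.8% ± 2.0 (SD, n = 3) in WT NS and 5.85% ± 1.15 in WT St. Sox10 made up 47.2% ± 2.97 and 71.6% ± 3.05, and Sox9 29.0% ± 3.38 and 22.6% ± 2.67. The SoxE transcripts were thus shared among 3 genes before stimulation and were mostly Sox10 after it.

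**Figure D2:**
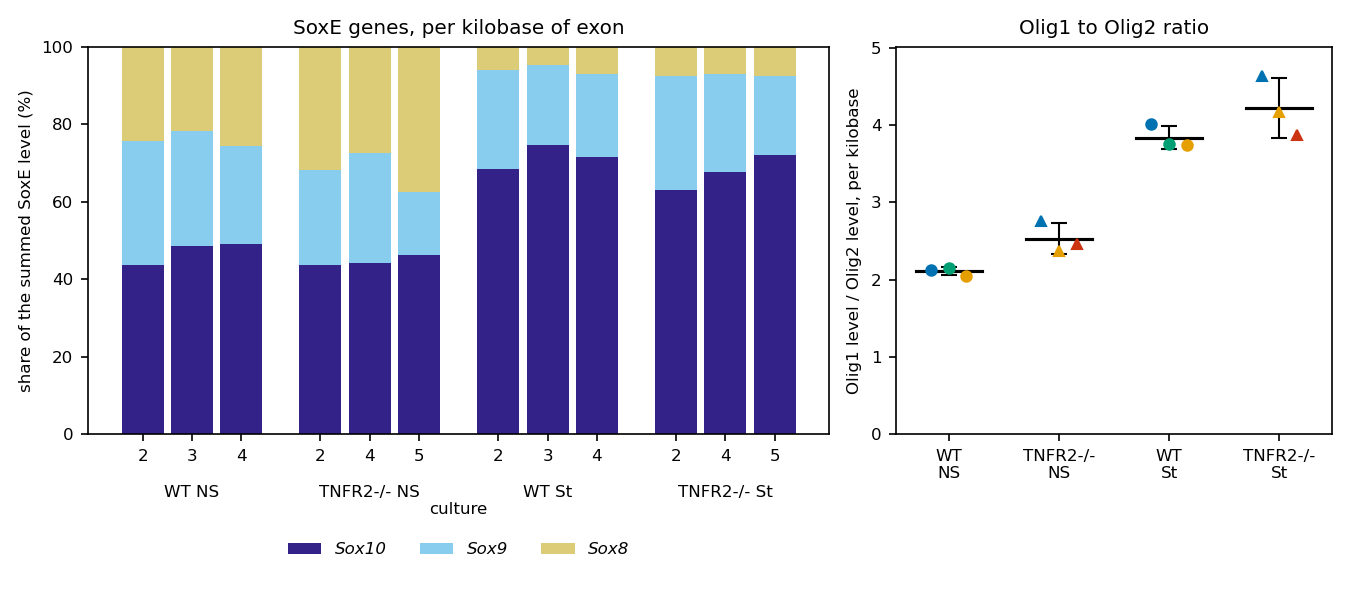
Left, share (%) of each SoxE gene in their summed level per kilobase of exon, as stacked bars for each library with its culture number. Right, level of Olig1 divided by that of Olig2, per kilobase, with the mean ± SD of 3 libraries per group (circles WT, triangles labeled TNFR2-/-, colors as culture numbers 2 blue, 3 green, 4 orange, 5 red). Sox8 holds 21.6% to 37.3% in non-stimulated and 4.70% to 7.54% in stimulated libraries.

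The homeodomain factors went in opposite directions. Nkx2-2, on chromosome 2 (147177546 to 147194243, minus strand, 4 exon blocks), read 4.65, 4.55 and 5.02 FPKM in WT NS and 2.48, 3.07 and 3.55 in WT St. The groups did not overlap, with a log2 fold change of -0.58 ± 0.280 that did not pass (adjusted p = 0.218) and passed with the culture as a block (adjusted p = 0.0051). An antisense gene over Nkx2-2, Nkx2-2os, shares 278 of its exon bases and was not analysed here. Nkx6-2, on chromosome 7 (139579376 to 139582797, minus strand, 4 exon blocks), was the member with the fewest reads, with 30 to 62 before stimulation and 80 to 132 after it in WT. Its FPKM was 2.04, 1.10 and 1.06 in WT NS and 3.98, 2.64 and 4.34 in WT St. The stimulated libraries lay above the non-stimulated ones, and the log2 fold change of 1.14 ± 0.371 missed the threshold (adjusted p = 0.0635) but passed with the block (adjusted p = 0.0166). Nkx6-2 shares 246 exon bases with Inpp5a on the opposite strand, whose own fold change was negative (-0.24 ± 0.069, adjusted p = 0.0368).

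Myrf and Zfp488 stand closest to terminal differentiation. Myrf, on chromosome 19 (10208272 to 10240748, minus strand, 26 exon blocks), read 455, 368 and 557 FPKM in WT NS and 369, 433 and 633 in WT St. These groups overlapped, and neither the main fit (0.04 ± 0.406, adjusted p = 0.97) nor the blocked fit (adjusted p = 0.865) called a difference. Zfp488, on chromosome 14 (33967070 to 33978764, minus strand, 2 exon blocks), read 32.5, 33.5 and 34.7 FPKM in WT NS and 18.4, 25.9 and 26.3 in WT St. Its stimulated libraries were all lower, with culture 2 the lowest, and the log2 fold change of -0.52 ± 0.235 passed with the culture as a block (adjusted p = 0.00568) and not without it (adjusted p = 0.18).

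The second comparison asks whether the response was the same in cells labeled TNFR2-/-. Here 1 member rose (Nkx6-2) and 3 fell (Sox8, Olig2 and Olig1), against 26.0% of all genes (9.62% higher and 16.3% lower). The members' median log2 fold change was -0.39, beside -0.11 over all genes. Scaling by median-of-ratios factors turned the split over all genes from 1739 higher and 2956 lower to 2130 higher and 1411 lower, and 4 of 9 members passed under both. St and NS libraries of 4 members did not overlap, where 37.3% of all genes did not. With the culture as a block 7 of 9 members passed, 2 higher and 5 lower, against 45.1% of all genes (13.4% higher and 31.7% lower), and without culture 5 it was 4, all lower, against 21.3%.

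Olig2 read 1879, 2503 and 2152 FPKM in TNFR2-/- NS cultures 2, 4 and 5 and 884, 1015 and 1000.5 in TNFR2-/- St. The fall to 44.4% of the NS mean was close to that in WT (log2 fold change -1.16 ± 0.096, adjusted p = 9.43e-06). Olig1 read 2439.7, 2796 and 2489 FPKM in NS and 1929, 1993 and 1821 in St (-0.43 ± 0.072, adjusted p = 0.00163). Neither gene's groups overlapped. The ratio of Olig1 to Olig2 per kilobase was 2.53 ± 0.203 in NS and 4.22 ± 0.388 in St.

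Sox8 read 85.7, 70.2 and 137.8 FPKM in TNFR2-/- NS and 16.7, 17.7 and 21.1 in TNFR2-/- St. The non-stimulated libraries were widely spread while the stimulated ones were tight, and the groups were far apart. The log2 fold change was -2.32 ± 0.223 (adjusted p = 3.01e-05), to 18.9% of the NS mean, and -2.14 without culture 5 (adjusted p = 6.72e-05). The antisense 2810468N07Rik fell here too, by less (-0.71 ± 0.222, adjusted p = 0.0386), from 992 to 1678 reads in NS to 570 to 879 in St. Sox10 read 243, 233 and 351 FPKM in NS and 289, 353 and 414 in St, and these groups overlapped. Its log2 fold change of 0.36 ± 0.175 did not pass (adjusted p = 0.159) but passed with the culture as a block (adjusted p = 0.0309). Sox9 read 21.5, 23.5 and 19.4 FPKM in NS and 21.4, 20.8 and 18.3 in St, overlapped, and passed in neither fit (-0.09 ± 0.109, adjusted p = 0.601, and 0.347 with the block). Sox8 held 32.1% ± 5.0 of the SoxE level in NS and 7.32% ± 0.306 in St, and Sox10 44.8% ± 1.38 and 67.7% ± 4.62.

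Nkx2-2 read 5.81, 4.86 and 10.4 FPKM in TNFR2-/- NS and 3.14, 3.37 and 6.21 in St. The groups overlapped through culture 5, which was high in both, and the log2 fold change of -0.66 ± 0.280 (adjusted p = 0.115) passed with the culture as a block (adjusted p = 0.00216) and without culture 5 (-0.63, adjusted p = 0.02). Nkx6-2 read 2.60, 1.77 and 2.90 FPKM in NS and 4.12, 4.09 and 11.8 in St, which did not overlap. It rose by 1.15 ± 0.371 (log2, adjusted p = 0.0432, and 0.0115 with the block). Without culture 5 the value was 0.80 (adjusted p = 0.0874), and leaving out any 1 of 8 libraries took the adjusted p to between 0.0553 and 0.126. The call was also lost with no filter (adjusted p = 0.0848), in a fit of these 2 groups alone (0.122) and with arrayWeights (0.86, adjusted p = 0.0695). Myrf read 469, 422 and 1012 FPKM in NS and 358, 483 and 978 in St, where the level of culture 5 exceeded any difference with stimulation (-0.08 ± 0.406, adjusted p = 0.913). Zfp488 read 26.0, 29.6 and 43.9 FPKM in NS and 18.5, 23.8 and 33.6 in St, a log2 fold change of -0.39 ± 0.235 that passed only with the culture as a block (adjusted p = 0.0128, and 0.258 without).

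**Figure D3:**
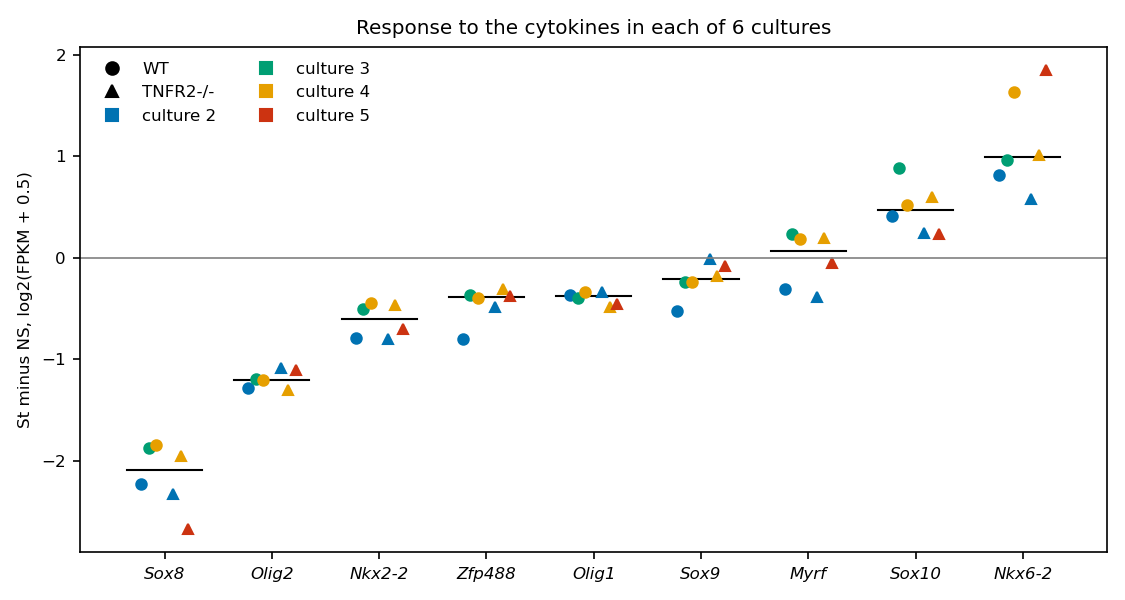
Difference between the St and the NS library of each culture, in log2(FPKM + 0.5), for the 9 members ordered by their median (horizontal bar over 6 cultures). Circles are WT and triangles labeled TNFR2-/-, colors give the culture number, and the gray line marks no difference. Sox8, Olig2, Nkx2-2, Zfp488, Olig1 and Sox9 lie below it in 6 of 6 cultures, Sox10 and Nkx6-2 above it in 6 of 6, and Myrf on both sides.

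Set culture by culture, the response had the least spread for the Olig genes (SD over 6 cultures 0.063 for Olig1 and 0.087 for Olig2). It had the most for Nkx6-2 (0.494), while the other homeodomain gene, Nkx2-2, stood at 0.164. The difference between St and NS on the log2(FPKM + 0.5) scale ran from -1.30 to -1.09 for Olig2 over the 6 cultures and from -0.49 to -0.33 for Olig1. Sox8 ran from -2.68 to -1.84, with TNFR2-/- culture 5 the lowest. Nkx2-2 ran from -0.80 to -0.44, Zfp488 from -0.80 to -0.31 and Sox9 from -0.53 to -0.0063, the last in TNFR2-/- culture 2. Sox10 ran from 0.24 to 0.89 and Nkx6-2 from 0.58 to 1.85. Myrf was lower in 3 cultures and higher in 3, from -0.39 to 0.23, and the lowest value in each genotype came from its culture 2.

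The difference between genotypes in the response itself was tested as the interaction of genotype and stimulation. In limma, 0 of 9 members passed and 0 had an unadjusted p under 0.05, against 0.00553% of all genes (1 gene), and voom on the recovered reads also called 0, with 0 unadjusted. With the culture as a block 0 passed and 1 member, Sox9, had an unadjusted p under 0.05. For Olig2 the interaction was 0.06 on the log2 scale with a 95% interval of -0.24 to 0.36, and for Olig1 -0.06 (-0.29 to 0.16). The interval of Olig2 was narrow beside its own fall (-1.23 in WT and -1.16 in TNFR2-/-). That of Olig1 was not narrow beside its own smaller fall (-0.36 in WT and -0.43 in TNFR2-/-). For Sox8 the interaction was -0.34 (-1.04 to 0.36), for Sox10 -0.25 (-0.80 to 0.30) and for Sox9 0.25 (-0.09 to 0.59). It was -0.08 (-0.96 to 0.80) for Nkx2-2, 0.009 (-1.15 to 1.17) for Nkx6-2 and 0.13 (-0.61 to 0.87) for Zfp488. Myrf had the widest interval of all 9, -1.39 to 1.15, so a sizeable difference either way could not be seen at this spread.

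The third comparison sets libraries labeled TNFR2-/- NS against WT NS and asks how the resting cells differed. Sox8 was the only member of 9 to pass, higher by 0.84 ± 0.223 (log2, adjusted p = 0.0411), against 10.9% of all genes (6.11% higher). Its libraries read 70.2 to 137.8 FPKM against 44.5 to 57.3, with no overlap, and Sox10 did not overlap either (233 to 351 against 205 to 227). Over all genes 34.2% did not overlap. The call for Sox8 was close to the threshold. It was lost without culture 5 (0.56, adjusted p = 0.0759, where 4.70% of all genes passed), with the replicate number as a block over both genotypes (0.56, adjusted p = 0.0552), with no filter (adjusted p = 0.0752), in a fit of these 2 groups alone (adjusted p = 0.125), and without any 1 of 10 of the 12 libraries (adjusted p of 0.0519 to 0.148). The Sox8 libraries of cultures 2 and 4, at 85.7 and 70.2 FPKM, still lay above all WT NS libraries. Sox8 and Sox9 are also expressed in astrocytes, and the astrocyte markers of these libraries have been given above. Their part in the value of Sox8 was not tested. The log2 fold changes of the others were 0.34 ± 0.175 for Sox10, 0.45 ± 0.280 for Nkx2-2, 0.64 ± 0.371 for Nkx6-2, 0.37 ± 0.406 for Myrf, 0.13 ± 0.072 for Olig1, -0.13 ± 0.096 for Olig2, 0.06 ± 0.109 for Sox9 and -0.05 ± 0.235 for Zfp488. None of these 8 passed (adjusted p of 0.22 to 0.911).

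**Figure D4:**
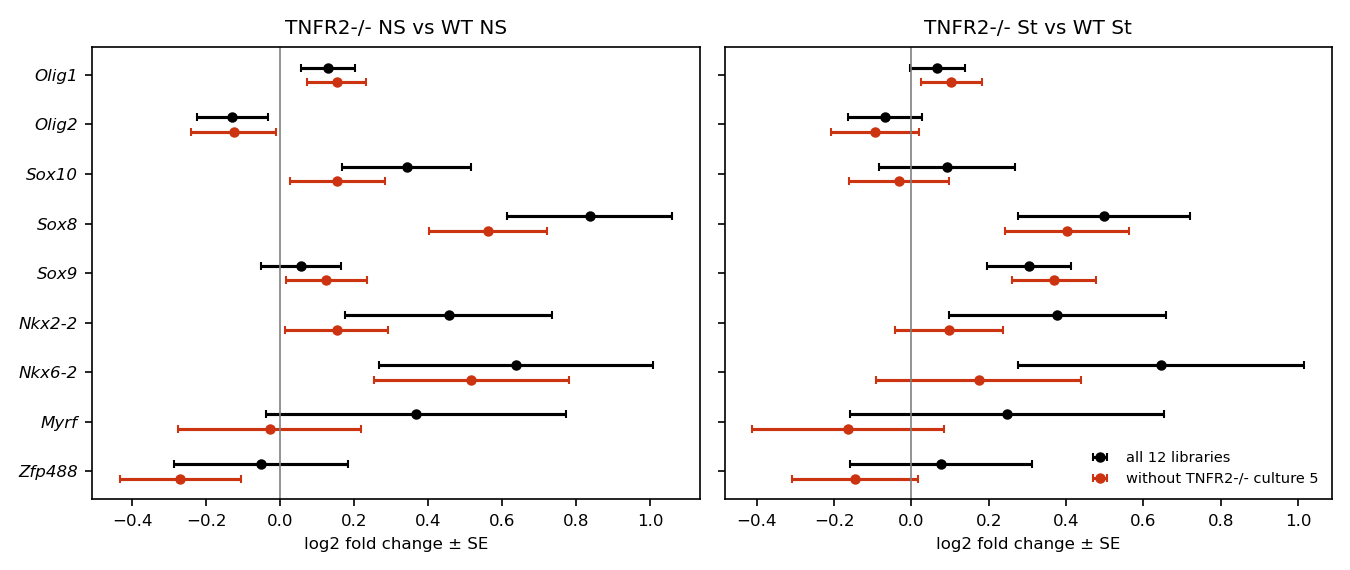
Log2 fold change ± SE of each member between libraries labeled TNFR2-/- and WT, non-stimulated (left) and stimulated (right), from all 12 libraries (black) and without TNFR2-/- culture 5 (red). Sox8 passed the test in the left panel with all libraries (0.84) and not without culture 5 (0.56), and Myrf changes sign in both panels.

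The fourth comparison sets TNFR2-/- St against WT St. In limma 0 of 9 members passed, against 5.45% of all genes, and 2 had an unadjusted p under 0.05, Sox8 and Sox9. Voom on the recovered reads called 0, with 1 unadjusted. Both genes lay higher in all 3 libraries labeled TNFR2-/- St, where 32.7% of all genes did not overlap. The 8 astrocyte markers together were also higher in the same libraries, at 1380 to 2570 RPM against 818 to 943 in WT St, with a median log2 fold change of 0.96. The 7 mural and fibroblast markers leaned lower with overlap, at 76 to 468 RPM against 323 to 791. The part of either list in these values was not tested. Sox8 read 16.7, 17.7 and 21.1 FPKM against 11.7, 11.7 and 15.6 (0.50 ± 0.223, adjusted p = 0.184). Sox9, the early glial factor, read 21.4, 20.8 and 18.3 FPKM against 16.5, 16.7 and 15.4 (0.30 ± 0.109, adjusted p = 0.113). With libraries weighted by arrayWeights Sox9 passed (0.37, adjusted p = 0.0412). The other 7 members differed by log2 values between -0.07 for Olig2 and 0.65 for Nkx6-2. Between these lay Olig1 (0.07), Zfp488 (0.08), Sox10 (0.09), Myrf (0.25) and Nkx2-2 (0.38).

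Culture 5 of the cells labeled TNFR2-/- set much of the spread in that genotype. In NS, its FPKM was 2.27 times the mean of cultures 2 and 4 for Myrf, 1.95 for Nkx2-2, 1.77 for Sox8, 1.58 for Zfp488 and 1.48 for Sox10. The Olig genes were level with the other cultures, at 0.951 for Olig1 and 0.982 for Olig2. In St the ratios for Myrf (2.33), Nkx2-2 (1.91) and Zfp488 (1.59) were much the same, that of Sox8 was smaller (1.23) and that of Nkx6-2 larger (2.87, beside 1.33 in NS). Genes of committed, newly differentiating oligodendrocytes stood higher in the same culture, Enpp6 by 5.35 times and Gpr17 by 3.39 times in NS. Mbp and Mog, which mark later myelinating cells, were near level at 1.09 and 1.03. Astrocyte genes were raised too, Gfap by 10.7 times and Aqp4 by 3.49 times, while the OPC genes Pdgfra and Cspg4 were at 0.897 and 0.89 times. These ratios come from 1 culture and have no test, and their part in the results above was not tested beyond the values without culture 5.

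**Figure D5:**
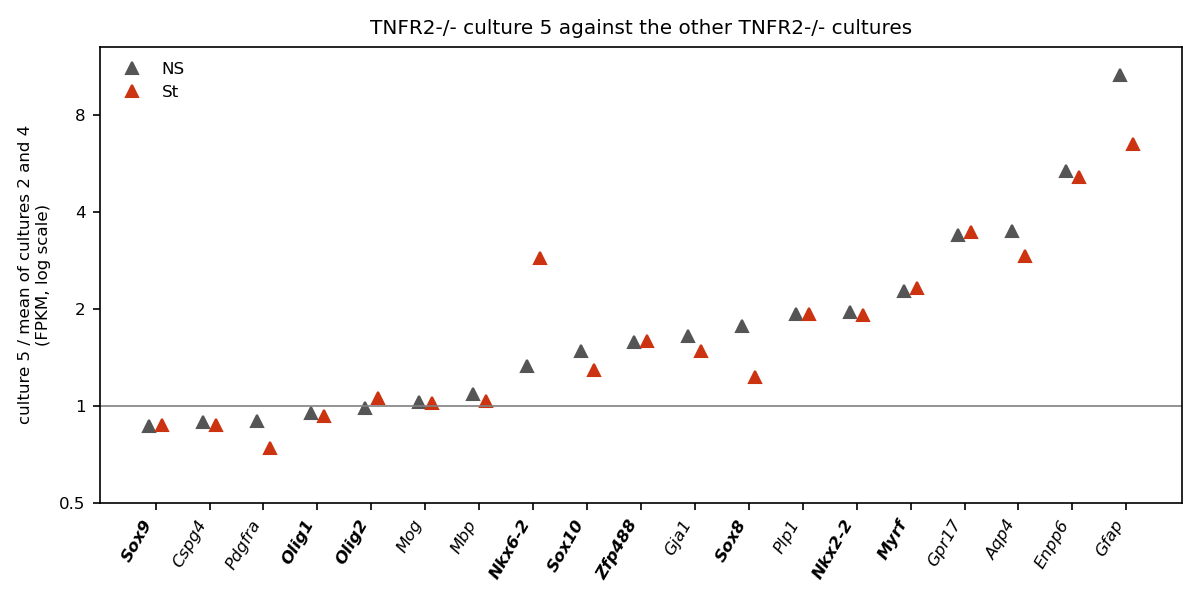
FPKM of TNFR2-/- culture 5 divided by the mean of cultures 2 and 4 of the same genotype (log scale), for the 9 members (bold) and 10 oligodendrocyte, astrocyte and OPC genes, non-stimulated (gray) and stimulated (red). Olig1, Olig2 and Sox9 lie near 1, Myrf and Nkx2-2 near 2, and Gfap highest at 10.7 in NS and 6.52 in St.

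Genes that work with these factors were described as lists. Of 22 tested partners and co-regulators (bHLH dimer partners, chromatin remodelers and other factors of the lineage), 0 rose and 7 fell in WT, and 1 rose and 7 fell in TNFR2-/-, where 8.36% (WT) and 16.3% (TNFR2-/-) of all genes were lower. With median-of-ratios factors 1 rose and 5 fell in WT, and 1 rose and 4 fell in TNFR2-/-. With the culture as a block 2 rose and 12 fell in each genotype, against 20.2% (WT) and 31.7% (TNFR2-/-) of all genes lower in those fits. The median log2 fold change of the list was -0.17 in WT and -0.14 in TNFR2-/-. Thrb, a thyroid hormone receptor, fell by 0.71 and 0.73 on the log2 scale, and the nuclear factor Nfib by 0.45 and 0.62. Tcf3, which encodes the E proteins that pair with Olig factors, fell by 0.29 and 0.47. Klf6 rose in TNFR2-/- (0.90 ± 0.241, adjusted p = 0.0191) and was 0.30 in WT without passing (adjusted p = 0.499, and 0.0247 with the block). Its interaction of 0.61 ± 0.340 did not pass (adjusted p = 0.712). Klf6 was lower in TNFR2-/- NS than in WT NS (-1.02 ± 0.241, adjusted p = 0.029). In that comparison of non-stimulated libraries 1 of the 22 was higher and 4 were lower, against 10.9% of all genes. Thrb was the higher one (0.56, adjusted p = 0.0347), and Yy1 was lower (-0.48, adjusted p = 0.0195). Yy1 was lower in TNFR2-/- St against WT St too (-0.42, adjusted p = 0.0391), where 0 of the 22 were higher and 2 lower, against 5.45% of all genes. With median-of-ratios factors 1 was higher and 0 were lower there (927 of all genes called). Without culture 5 it was 0 and 0 (302 genes), so Yy1 passed in neither run. In TNFR2-/- NS against WT NS, 0 were higher and 4 lower without culture 5 (849 genes), so Thrb no longer passed.

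Among 11 inhibitors of differentiation 1 rose and 3 fell in WT, and 1 rose and 4 fell in TNFR2-/-, beside the same 8.36% and 16.3% of all genes lower. With the block it was 1 and 6 in WT and 1 and 5 in TNFR2-/-, beside 20.2% and 31.7%. The list's median log2 fold change was -0.25 in WT and -0.40 in TNFR2-/-. Hes1, a Notch effector and repressor, fell by 1.95 on the log2 scale in WT (± 0.234 SE, adjusted p = 0.000218) and by 2.43 in TNFR2-/- (adjusted p = 3.06e-05). Id4, which sequesters bHLH dimer partners, fell by 1.42 and 1.95. Hes5 and Id1 fell in TNFR2-/- (-2.02 ± 0.402 and -0.79 ± 0.152) and did not pass in WT (-0.80, adjusted p = 0.237, and -0.48, adjusted p = 0.0563). In the interaction 0 of the 11 genes passed, with 3 at an unadjusted p under 0.05, so no difference between genotypes in response was called. Sox11, a SoxC factor of immature cells, rose by 1.35 ± 0.143 in WT (adjusted p = 8.29e-05) and by 1.77 ± 0.143 in TNFR2-/- (adjusted p = 8.13e-06). In TNFR2-/- NS against WT NS, 2 genes of the list were higher, Id3 (0.94, adjusted p = 0.0286) and Id1 (0.67, adjusted p = 0.0268), and 2 were lower, Sox11 (-0.60, adjusted p = 0.0296) and Sox6 (-0.32, adjusted p = 0.0243), against 10.9% of all genes.

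None of 23 myelin and differentiation targets passed with stimulation in either genotype in limma, with 1 at an unadjusted p under 0.05 in each, and voom called 0 in WT and 1, lower, in TNFR2-/-. The list's median log2 fold change was 0.02 in WT and -0.21 in TNFR2-/-. With the culture as a block 3 of 23 fell in WT and 9 of 23 in TNFR2-/-, and none rose, where 20.2% and 31.7% of all genes were lower, and 0 of 23 passed in the interaction (7 at an unadjusted p under 0.05). Mbp, which encodes myelin basic protein, fell by 0.34 in TNFR2-/- in that fit (adjusted p = 0.000709) and stood at 0.05 in WT. Gpr17, a receptor of committed precursors, fell in both (-0.98, adjusted p = 0.0112, and -0.89, adjusted p = 0.0118), and Fa2h, which makes hydroxylated myelin lipids, fell in both (-0.50, adjusted p = 0.0491, and -0.78, adjusted p = 0.00687). Car2, carbonic anhydrase of oligodendrocytes, was higher in the libraries labeled TNFR2-/- at rest and after stimulation (0.69 ± 0.092, adjusted p = 0.00727, and 0.64 ± 0.092, adjusted p = 0.0102). Of 6 family relatives (Olig3, Nkx6-1, Nkx6-3, Nkx2-9, Myrfl and Prdm8), 3 passed the filter on low values, and 0 passed the test in either stimulation comparison, with 0 unadjusted and 0 in voom. With the block 1 rose in each genotype.

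The genes whose log2(FPKM + 0.5) ran most like each member over the 12 libraries were named from 13553 genes, as a description that includes the shared effect of stimulation and of culture 5. Olig2 ran most like Ubqln2 (Pearson r = 0.986), Map3k12 and Btrc, and Olig1 most like 2900052L18Rik (r = 0.977), Fam19a5 and Gareml. Sox8 ran most like Prr12 (r = 0.991), Kifc3 and Traf4, Sox10 like Anks1 (r = 0.949), Zfp874a and Dpm2, and Sox9 like Slc38a10 (r = 0.903), Fignl2 and mt-Nd1. Nkx2-2 ran most like Tns3 (r = 0.989), Tmem100 and Sash1, and Nkx6-2 like Il15 (r = 0.967), Tmem200b and Gm6548. Myrf ran most like Lingo2 (r = 0.992), Enpp6 (r = 0.986) and Parvb, and Zfp488 like Sema5b (r = 0.981), Ncam1 and Elfn2. The SoxE genes had no companion in common among these, nor did the Olig genes.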

How the data were processed

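Libraries from 12 samples were made at a commercial center by the submitters, who trimmed reads with Trim Galore and aligned them with STAR to GRCm38, and their processing notes also name edgeR. Both deposited tables hold FPKM computed by the authors, with each library divided by its own total. Of 45792 entries per table, 99 repeated symbols (229 entries) were left out. Whole reads were recovered for 26636 of 26636 genes above 0 in at least 2 libraries (within 0.001 reads). The main test was limma 3.58.1 in R 4.3.3 on log2(FPKM + 0.5), with 4 group means over all 12 libraries and an empirical Bayes trend, on 18081 genes of mean FPKM of at least 0.1, and Benjamini-Hochberg adjustment over all of them. Fold changes are on that scale and understate low genes. A member passed at an adjusted p of at most 0.05. The script was tested on simulated data.

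Replicates are numbered samples of a group, and p-values measure the spread between them. Deviations from group means, over 13554 genes, correlated at 0.34 to 0.65 between NS and St libraries of the same number and genotype (6 pairs) and at -0.45 to 0.09 between other numbers (12 pairs). Same numbers across genotypes did not pair (-0.06 to 0.20 in the same condition). The pairing was read from these values, so the culture was used as a block within genotype.

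The members and gene lists were chosen with earlier results of these data known. All 9 members are named in each comparison. From each other list, at most 6 genes past the test in at least 1 comparison are named, by largest change, and so are the 3 genes most like each member. One gene that this rule names is not reported here. Fa2h, Gpr17, Mbp, Sox6 and the culture 5 genes were named after their values were seen. Exon lengths and positions are from GENCODE M21.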

Additional observations from a re-analysis of the deposited data

How the results depend on the processing

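The falls of Sox8, Olig2 and Olig1 with stimulation kept their direction in every alternative run and passed in all of them, except that Olig1 missed a rule that also asked for a 1.5-fold change, in both genotypes (-0.36 in WT and -0.43 in TNFR2-/-). The count of members that passed in WT St against WT NS went from 4 to 8 with the culture as a block within genotype, with the number as a block over both genotypes, with the culture as a random effect and without TNFR2-/- culture 5, the last 2 chosen after seeing the data. Calls over all 18081 genes rose in the same runs, from 2903 to 5719, 5342, 5818 and 3732 in that order. The member count was 3 with no filter, where Sox10 was lost (2644 of 29325 genes called), and under the 1.5-fold rule (1361 genes). It was 5 with a pseudocount of 0.1 (2950 genes), a mean FPKM of at least 1 (2817 of 13554) or voom (3021), and 6 with only the groups compared (3542) or arrayWeights (4721). In TNFR2-/- St against TNFR2-/- NS it went from 4 to 7 with the replicate block within genotype, over both genotypes or as a random effect, where all genes called went from 4695 to 8153, 7754 and 8275. It went to 3 with no filter (4252 of 29325 genes), with only the groups compared (2752 genes, Nkx6-2 lost in both) and under the 1.5-fold rule (1824 genes). With arrayWeights (5044 genes) and without culture 5 (3847 genes) it stayed 4, but Nkx6-2 was lost and all 4 were lower. The block changed no member call in the interaction. All genes called there stayed at 1 with the block within genotype or over both genotypes. With the culture as a random effect they rose to 212. For TNFR2-/- NS against WT NS the count went from 1 to 0 with no filter, in only the groups compared, with the block over both genotypes and without culture 5. All genes called there went from 1964 to 1149 (of 29325), 8, 3128 and 849 in that order. For TNFR2-/- St against WT St the member count went from 0 to 1 with arrayWeights, and all genes called from 985 to 2178. Leaving out 1 library at a time gave counts of 0 to 1 for TNFR2-/- NS against WT NS, 3 to 5 for WT St against WT NS and 3 to 4 for TNFR2-/- St against TNFR2-/- NS, and 0 for the other comparisons. All genes called ran from 82 to 2609, 2052 to 3142 and 3645 to 4492 in the first 3 of these. They ran from 61 to 1417 for TNFR2-/- St against WT St and from 1 to 2 for the interaction.

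Signs changed only for values that did not pass. For Myrf, TNFR2-/- NS against WT NS was -0.14 with the block over both genotypes and -0.029 without culture 5, and TNFR2-/- St against WT St was -0.17 with arrayWeights, -0.26 with that block and -0.16 without culture 5. For Zfp488 the latter comparison gave -0.12, -0.11 and -0.15 in the same order. For Sox10 it gave -0.022 with the block over both genotypes and -0.033 without culture 5. With median-of-ratios factors, Sox9 stood at 0.024 and Myrf at 0.035 in TNFR2-/- St against TNFR2-/- NS. The interaction of Nkx6-2 was -0.085 with a pseudocount of 0.1, -0.42 with arrayWeights, -0.12 with voom and -0.34 without culture 5. With 1 library left out the interaction ran from -0.53 to 0.28 for Myrf, -0.36 to 0.22 for Nkx2-2, -0.46 to 0.25 for Nkx6-2, -0.040 to 0.17 for Olig2 and -0.093 to 0.35 for Zfp488. TNFR2-/- NS against WT NS ran from -0.029 to 0.60 for Myrf, -0.024 to 0.16 for Sox9 and -0.27 to 0.10 for Zfp488, and TNFR2-/- St against WT St from -0.16 to 0.56 for Myrf, -0.033 to 0.23 for Sox10 and -0.15 to 0.28 for Zfp488. Stimulation gave -0.18 to 0.21 for Myrf in WT and -0.49 to 0.31 in TNFR2-/-. The cause was not tested.

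By deposited FPKM Myrf ranked 3rd of the members in all 4 groups, and 7th or 8th per kilobase of exon. With 3 libraries a group an exact permutation test of 1 gene cannot go below p = 0.1, so calls rest on the spread shared across genes. Nkx6-2, at 30 to 342 reads, is the member whose counting error is largest.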
